A study of Mus musculus with 17 samples.

Results

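Synaptic and neuronal adhesion molecules were examined for the active histone mark H3K27ac in mouse hypothalamus. The genes were chosen by symbol, from the RefSeq protein-coding genes of GRCm38.p6 (mm10), as the neurexins, neuroligins, Lrrtm, Slitrk, Lrfn and Flrt genes, contactins and Cntnap genes, Cadm1 to Cadm4, Dscam, Kirrel, Il1rapl and Igsf21 genes, and the cadherins and protocadherins that carry a number. The rule gave 84 genes of 21887 protein-coding genes (0.384%). No measured value entered it. The clustered protocadherins, whose symbols carry a letter, are not among them.

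Neurons find and keep their partners through proteins that bind each other across the gap between membranes. Neurexins sit mostly on the presynaptic side and bind neuroligins, Lrrtm proteins and secreted bridges such as cerebellins. Cadherins and protocadherins bind mostly their own kind, and their tails reach catenins and the actin skeleton. Acetylation of histone H3 at lysine 27 marks active promoters and enhancers, so a peak shows where the chromatin of at least some cells in the tissue carries the mark. It does not measure transcription.

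The series held 17 mouse hypothalamus samples: 3 bulk CUT&Tag samples for H3K27ac, and Paired-Tag sub-libraries (7 of DNA, 7 of RNA) from a single-cell method that reads histone marks together with RNA. In CUT&Tag an antibody guides a transposase to the mark, so that only nearby DNA is cut and sequenced. The labels name the tissue but no strain, genotype, treatment, age or sex. All values below come from the H3K27ac peaks of the 3 bulk samples. They form 1 list for the 3 together, with no value per sample, so nothing below has a spread between animals and no difference was tested. The 183678 peaks had a median width of 557 bp and a median fold enrichment of 3.18, the authors' linear ratio for each peak, with a range from 1.31 to 28.0. The depth is unknown. In bulk tissue, fewer cells with a mark and less mark per cell cannot be told apart.

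The tissue label was set against markers. Of 10 hypothalamic genes 9, among them Nkx2-1 and Otp, carried a peak at most 1 kb from either end, and Nr5a1 did not. All 5 neuronal genes had one, as did 3 of 4 astrocyte genes, 3 of 3 oligodendrocyte genes, 2 of 3 microglial genes and 2 of 4 endothelial genes. Of all protein-coding genes 69.2% had such a peak, so the counts for astrocytes, microglia and endothelium are near or below that background. The 3 Hox genes of hindbrain and cord had no peak even within 10 kb. Peaks at glial and vessel genes were thus in the list beside those at neuronal genes, and which cells carry each mark described here was not tested.

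Every adhesion gene had acetylated chromatin inside it or nearby. All 84 had a peak in the gene or within 10 kb of it (100%, Wilson interval 95.6 to 100), against 79.2% of all protein-coding genes. A peak lay within 1 kb of an end of the gene in 78 of 84 (92.9%), against 69.2% of all protein-coding genes. Where RefSeq lists a transcription start, one was marked within 1 kb in 54 of 56 members (96.4%, Wilson interval 87.9 to 99.0), against 68.3% of protein-coding genes. These intervals cover counting error only, and genes are not replicates. By length, an end peak was present in 19 of 20 members under 20 kb against 59.0% of protein-coding genes of that length, in 15 of 18 from 20 to 100 kb against 79.6%, in 14 of 15 from 100 to 300 kb against 85.3%, and in 30 of 31 above 300 kb against 89.8%. For any peak in the window the shares of all protein-coding genes in those classes were 68.7%, 89.9%, 96.9% and 98.6%. The genes without a peak at a listed start were Cntn3 and Cdh26.

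Their end peaks were weaker than usual, least so in the longest genes. The strongest peak at an end had a median fold of 5.96 in the members and 8.60 in all protein-coding genes, and 62 of 78 members (79.5%) lay below the latter. By length the medians were 5.79 against 7.87 under 20 kb, 3.76 against 9.57 from 20 to 100 kb, 6.13 against 8.60 from 100 to 300 kb, and 7.28 against 7.82 above 300 kb. At listed starts they were 6.18 and 9.05 over all lengths. For 32 members (38.1%) the strongest peak of the whole window was the one at an end. The share was 58.3% for protein-coding genes that had a peak, a background not matched for length. The members held a median of 11 peaks, against 4 in all protein-coding genes. In 32 other members the strongest peak lay inside the gene away from any listed start, in 3 at an inner listed start, and in 17 in the 10 kb flanks.

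Many of these genes are among the longest in the genome, and their peak counts ranged widely. Their median length was 138 kb against 17.2 kb for all protein-coding genes, and 31 (36.9%) were longer than 300 kb against 2.54% of protein-coding genes. The members held 2574 peaks, 1.40% of the list, of which 2313 (89.9%) lay inside the genes away from ends and listed starts. Peaks inside had a median fold of 3.11 and a median width of 483 bp, while the 128 peaks at ends had a median fold of 4.37 and a width of 960.5 bp. The 5 members with most peaks held 776 of them (30.1%), and the first 10 held 1292 (50.2%).

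Below 300 kb the members were denser in peaks than protein-coding genes of like length, and above it they were not. Density is the number of peak summits per 100 kb of the gene with its 10 kb flanks. The medians were 13.5 against 8.11 for genes under 20 kb, 15.5 against 10.5 from 20 to 100 kb, 18.5 against 13.4 from 100 to 300 kb, and 6.61 against 8.54 above 300 kb. Over all lengths the median was 12.5 against 9.31. That order depends on the weak peaks: with only the peaks of fold 4.24 or more, the upper 25% of the list, it was 2.76 against 3.13. Spearman's rho of density with length was -0.37 over the 84 members and 0.26 over all protein-coding genes. In both groups, however, the class medians rose with length up to 300 kb and were lower above it. The groups differ in their mix of lengths, with 36.9% and 2.54% of genes above 300 kb, and the signs are not to be read as opposite trends. Both values of rho describe genes that share 1 list and are no test.

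**Figure D1:**
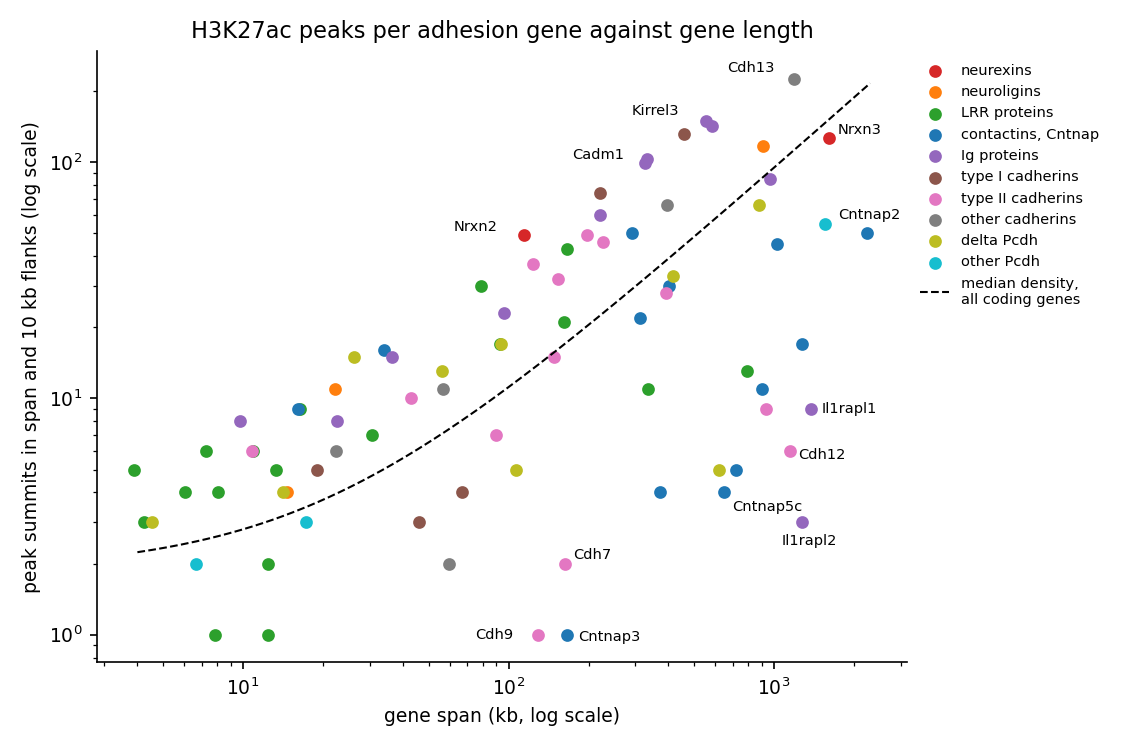
Peak summits per gene (log scale) against gene length in kb (log scale), 1 point per adhesion gene drawn, coloured by family, with the count that the median density of all protein-coding genes would give as a dashed line. Short genes lie mostly on or above the line, while among genes over 300 kb Cdh13 with 226 peaks and Il1rapl2 with 3 lie far apart.

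The DNA at some starts is shown because starts poor in CpG, which mostly had no peak among protein-coding genes, mostly had one here. RefSeq lists 69 starts for 56 members, as 250 bases before and 50 after the start. Below are 8 of them, read 5′ to 3′ on the gene's strand from the RefSeq table (GRCm38.p6), with every CpG dinucleotide in capitals.
Nrxn3 start 1 (chr12:88794254-88794553, plus strand): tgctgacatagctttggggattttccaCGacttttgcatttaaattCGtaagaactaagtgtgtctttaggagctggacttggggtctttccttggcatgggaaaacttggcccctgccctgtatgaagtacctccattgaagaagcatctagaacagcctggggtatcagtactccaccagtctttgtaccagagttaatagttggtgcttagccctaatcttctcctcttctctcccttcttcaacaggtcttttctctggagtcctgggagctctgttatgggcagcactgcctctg
Nrxn3 start 3 (chr12:89812233-89812532, plus strand): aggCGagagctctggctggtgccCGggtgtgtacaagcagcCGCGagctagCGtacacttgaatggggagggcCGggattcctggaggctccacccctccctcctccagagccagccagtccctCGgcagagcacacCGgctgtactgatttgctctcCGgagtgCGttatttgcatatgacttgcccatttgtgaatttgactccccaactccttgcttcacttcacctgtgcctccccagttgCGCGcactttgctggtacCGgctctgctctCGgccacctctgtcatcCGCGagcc
Cntn5 start 1 (chr9:10904726-10905025, minus strand): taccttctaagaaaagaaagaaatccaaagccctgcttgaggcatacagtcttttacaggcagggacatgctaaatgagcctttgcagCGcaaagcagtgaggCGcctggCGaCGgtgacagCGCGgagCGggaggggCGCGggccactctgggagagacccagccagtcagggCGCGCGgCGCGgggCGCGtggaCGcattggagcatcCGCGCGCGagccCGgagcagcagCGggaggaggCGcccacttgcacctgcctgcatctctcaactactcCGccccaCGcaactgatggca
Cntn6 start 1 (chr6:104492794-104493093, plus strand): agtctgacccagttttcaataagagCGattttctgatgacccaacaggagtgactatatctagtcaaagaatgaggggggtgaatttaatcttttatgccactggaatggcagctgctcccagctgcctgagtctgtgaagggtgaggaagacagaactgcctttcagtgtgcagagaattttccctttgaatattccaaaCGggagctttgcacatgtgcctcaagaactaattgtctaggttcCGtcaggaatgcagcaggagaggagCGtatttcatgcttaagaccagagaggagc
Cntn3 start 1 (chr6:102464618-102464917, minus strand): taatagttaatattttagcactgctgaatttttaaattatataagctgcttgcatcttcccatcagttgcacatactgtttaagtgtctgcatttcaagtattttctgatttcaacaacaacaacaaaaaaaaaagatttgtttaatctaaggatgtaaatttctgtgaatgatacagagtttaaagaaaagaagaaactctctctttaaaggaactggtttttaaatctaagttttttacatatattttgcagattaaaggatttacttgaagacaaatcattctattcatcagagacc
Cadm4 start 1 (chr7:24481773-24482072, plus strand): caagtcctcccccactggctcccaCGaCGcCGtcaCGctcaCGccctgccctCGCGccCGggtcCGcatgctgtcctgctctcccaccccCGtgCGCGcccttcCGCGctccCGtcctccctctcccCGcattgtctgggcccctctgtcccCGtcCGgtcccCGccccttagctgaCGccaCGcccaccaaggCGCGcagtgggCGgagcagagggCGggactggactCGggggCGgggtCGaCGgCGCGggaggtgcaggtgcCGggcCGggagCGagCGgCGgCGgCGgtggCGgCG
Cdh9 start 1 (chr15:16728665-16728964, plus strand): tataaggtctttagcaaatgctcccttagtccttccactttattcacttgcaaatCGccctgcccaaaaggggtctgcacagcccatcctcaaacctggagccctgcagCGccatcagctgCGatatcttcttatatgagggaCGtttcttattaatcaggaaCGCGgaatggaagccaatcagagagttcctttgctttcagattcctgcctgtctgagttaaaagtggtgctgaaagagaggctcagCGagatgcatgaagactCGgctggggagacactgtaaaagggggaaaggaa
Cdh10 start 1 (chr15:18820079-18820378, plus strand): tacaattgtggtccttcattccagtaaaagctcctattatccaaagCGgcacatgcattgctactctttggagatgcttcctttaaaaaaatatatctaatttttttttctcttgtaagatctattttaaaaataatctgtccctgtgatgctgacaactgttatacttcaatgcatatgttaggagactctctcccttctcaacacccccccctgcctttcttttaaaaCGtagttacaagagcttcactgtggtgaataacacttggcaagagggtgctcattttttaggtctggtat
The first start of Nrxn3 holds 2 CpG and had a peak of fold 4.70, whereas the third of that gene holds 16 and had a peak of fold 9.37. The contactins Cntn5 and Cntn6 hold 26 and 4 CpG, and their folds were 11.9 and 10.7. The listed start of Cntn3 holds no CpG and had no peak. Cadm4 holds the most of the 8, at 40, with a fold of 6.69, while Cdh9 with 8 CpG had a fold of 6.43 and Cdh10 with 2 had 4.07. These 8 starts were picked for contrast, so they can show neither a relation of CpG count to fold nor its absence.

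Across all listed starts, CpG-poor starts of adhesion genes were marked almost as often as CpG-rich ones. Of the 30 member starts with under 10 CpG in the 300 bases, 28 carried a peak within 1 kb (93.3%, Wilson interval 78.7 to 98.2), against 34.9% of all protein-coding starts of that kind. Starts of the same gene can share a peak, so they are not independent and the interval treats them as if they were. Lrrtm4 starts 1 and 2 had the same strongest peak. Cdh7 start 3 and Cntn4 start 1 had that of a start of their gene richer in CpG. Leaving out olfactory, vomeronasal and trace amine receptor genes, which have many such starts, the share of all was 40.4%. Neither background was matched for length. Among protein-coding genes with a listed start, 56.2% of those under 20 kb had one marked within 1 kb, and 93.2% of those above 300 kb. With 10 to 19 CpG, 22 of 22 member starts had a peak against 91.8% of all, and with 20 or more, 17 of 17 against 97.4%. The median folds were lower than at all starts with 20 or more CpG (5.83 against 9.69) and with 10 to 19 (7.11 against 8.96), and higher with under 10 (6.41 against 4.97).

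**Figure D2:**
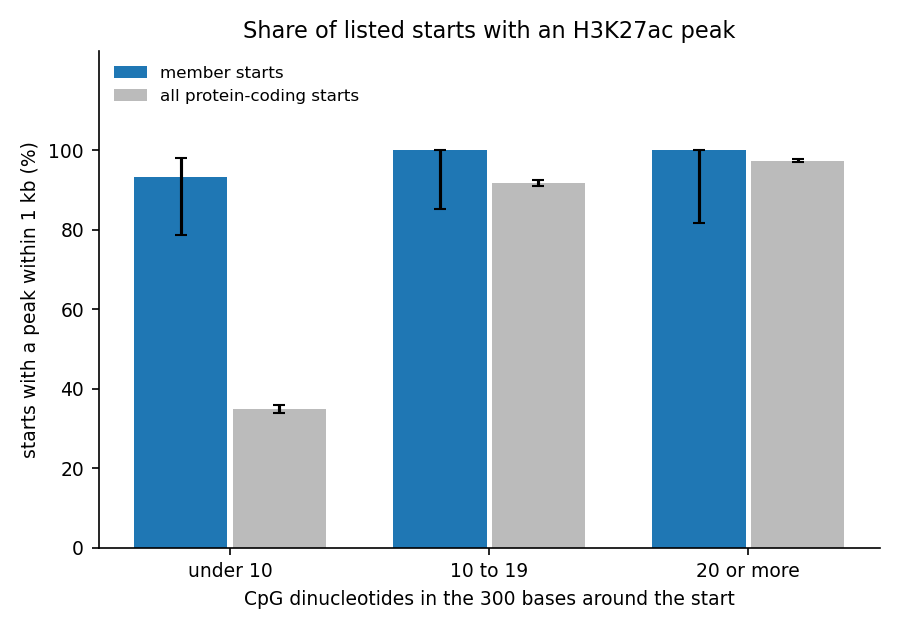
Share of listed starts with a peak within 1 kb (percent), by the number of CpG dinucleotides in the 300 bases around the start, for adhesion genes and all protein-coding genes; error bars are 95% Wilson intervals. The groups differ most at starts with under 10 CpG, 93.3% against 34.9%. The intervals treat starts as independent, though some starts of the same gene share a peak. The groups are not matched for gene length.

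Short promoter motifs were counted on both strands of the same 300 bases. TATAAA, the core of the TATA box, was in 5 of 69 member starts (7.25%) and in 12.6% of all. CCAAT was in 30 (43.5%) against 38.2%, and GGGCGG, the core that Sp1 binds, in 25 (36.2%) against 46.2%. TGACGTCA, the full cAMP response element, was in 1 member start, that of Slitrk2, and in 2.23% of all. A match describes these letters only.

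The neurexins Nrxn2 and Nrxn3 carried their strongest marks inside the gene, far from its ends. Nrxn3 spans 1612 kb on chromosome 12 and held 127 peaks, the strongest of fold 13.5 at chr12:89105871-89107181, 383842 bp into the gene. Its 3 listed starts lie at 4.45, 14.3 and 67.6% of the gene's length and had folds of 4.70, 6.25 and 9.37, so the mark was strongest at the start farthest inside. The peak at the end of the Nrxn3 span had a fold of 4.16. Nrxn2, at 114 kb, was the densest of the 84 genes with 49 peaks, or 36.4 per 100 kb, and none of them exceeded a fold of 6.10. The peaks of Nrxn2 covered 24.5% of its window, those of Nrxn3 4.71%.

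Among the neuroligins, the postsynaptic partners of neurexins, the long gene again held most of the peaks. Nlgn1, found at excitatory synapses, spans 911 kb and held 117 peaks. Its end peak had a fold of 9.16, its second listed start, 178.9 kb inside, 6.57, and its strongest peak 11.4. That peak, at chr3:26134889-26135753, lay 18837 bp from the second start. Nlgn2, of inhibitory synapses, spans 14.7 kb and held 4 peaks with folds of 3.19, 3.17, 5.05 and 12.2. The last of these lies within Plscr3, and the end peak of 5.05 lies within 1 kb of an end of Tmem256, so neither belongs to Nlgn2 alone. Nlgn3, on the X chromosome, held 11 peaks, or 26.1 per 100 kb, all of fold 4.39 or less, and its end peak of 3.90 lies within 1 kb of an end of Med12.

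The leucine-rich repeat proteins are mostly postsynaptic organizers, and 17 of 18 genes had a peak at an end. Their median length was 12.9 kb, with a range from 3.88 to 791 kb. The Lrrtm proteins bind neurexins. Lrrtm4 spans 791 kb with 13 peaks (1.60 per 100 kb) and an end peak of 7.53. Lrrtm1, Lrrtm2 and Lrrtm3 lie within the alpha-catenin genes Ctnna2, Ctnna1 and Ctnna3. Lrrtm1 had no peak at an end but 1 of fold 5.47 at its listed start, 13.3 kb inside. At the ends of Lrrtm2 and Lrrtm3 the folds were 4.32 and 6.16.

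The Slitrk proteins bind presynaptic receptor phosphatases, and all 6 had an end peak. The folds were 5.79 in Slitrk1, 6.39 in Slitrk2, 4.85 in Slitrk3, 7.18 in Slitrk4, 7.12 in Slitrk5 and 7.44 in Slitrk6. The listed start of Slitrk1, at the higher end, had a fold of 4.41, and the summit of its peak of 5.79 lay 2670 bp from that start. Slitrk4 and Slitrk6 had their end peak and no other. Slitrk3 had its strongest peak, of fold 13.6, in the flank at chr3:73065893-73066591, among the 10 strongest peaks of the adhesion genes. The summit of that peak lies within 1 kb of an end of Gm20754, and that of the Slitrk5 end peak within 1 kb of an end of Gm30439. Neither of these neighbours is protein-coding.

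With flanks counted, the Lrfn proteins, also called SALMs, had the highest median density of the repeat proteins, 22.0 per 100 kb for 5 genes. Lrfn1 had 24.8 and Lrfn2 23.1 per 100 kb. Lrfn5, at 335 kb, held 11 peaks (3.10 per 100 kb). Lrfn2 had the highest end fold of the 5, 7.93. Without flanks, Lrfn1 to Lrfn5 had 24.5, 25.9, 27.6, 0 and 2.98 peaks per 100 kb. Flrt1 to Flrt3 then had 35.6, 18.2 and 37.7, so the order of these groups depended on the flanks. The Flrt proteins bind latrophilins and Unc5 receptors. Flrt3 had an end peak of 9.84, the highest of the repeat proteins, and Flrt2 one of 2.59, the lowest of the 78 members with an end peak. Flrt1, with 30.4 peaks per 100 kb, lies within Macrod1, and Flrt3 within Macrod2. Lrfn4 lies within Pcx. For these 6 nested genes, whose every peak falls inside another coding gene, peaks cannot be given to 1 gene.

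Contactins and Cntnap proteins, which pair with each other at synapses and along myelinated axons, had the strongest ends and the emptiest interiors. All 13 had an end peak, with a median fold of 10.4, and 9 of the 16 members above the protein-coding median of 8.60 were from this family. Their median density was 2.21 per 100 kb. The end folds were 12.8 in Cntn3, 12.2 in Cntnap5a, 11.9 in Cntn5 and 11.7 in Cntnap2. The end peaks of Cntnap5a, Cntn5 and Cntnap4 have summits within 1 kb of ends of LOC108167704, Gm32710 and Gm26994, which are not protein-coding. Cntn3 had its peak at the higher end, at chr6:102562888-102564718, with its summit 99745 bp from the listed start, the CpG-free sequence printed above. Cntn1, which has 3 listed starts, had a peak at each, with folds of 10.7, 3.03 and 8.02. In Cntn4 the end peak of 8.29 was weaker than the one of 11.1 at starts 441 kb inside.

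Within the family the short genes stood apart by their density. Cntn2 and Cntnap1 are known from the axon beside the node of Ranvier. Cntn2 held 29.7 peaks per 100 kb with an end fold of 6.61, and Cntnap1 24.9 with 6.62, the 2 lowest end folds of the family. Peaks at the ends of Cntnap1 also lie within 1 kb of ends of Ccr10 and Ezh1, and without peaks inside or near other coding genes its density was 8.31. Cntn1 had 16.1 per 100 kb. The remaining end folds were 10.7 in Cntn6, 10.4 in Cntnap4, 9.83 in Cntnap5c, 8.82 in Cntnap5b and 7.37 in Cntnap3. Cntnap3 spans 166 kb and had that end peak and no other.

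**Figure D3:**
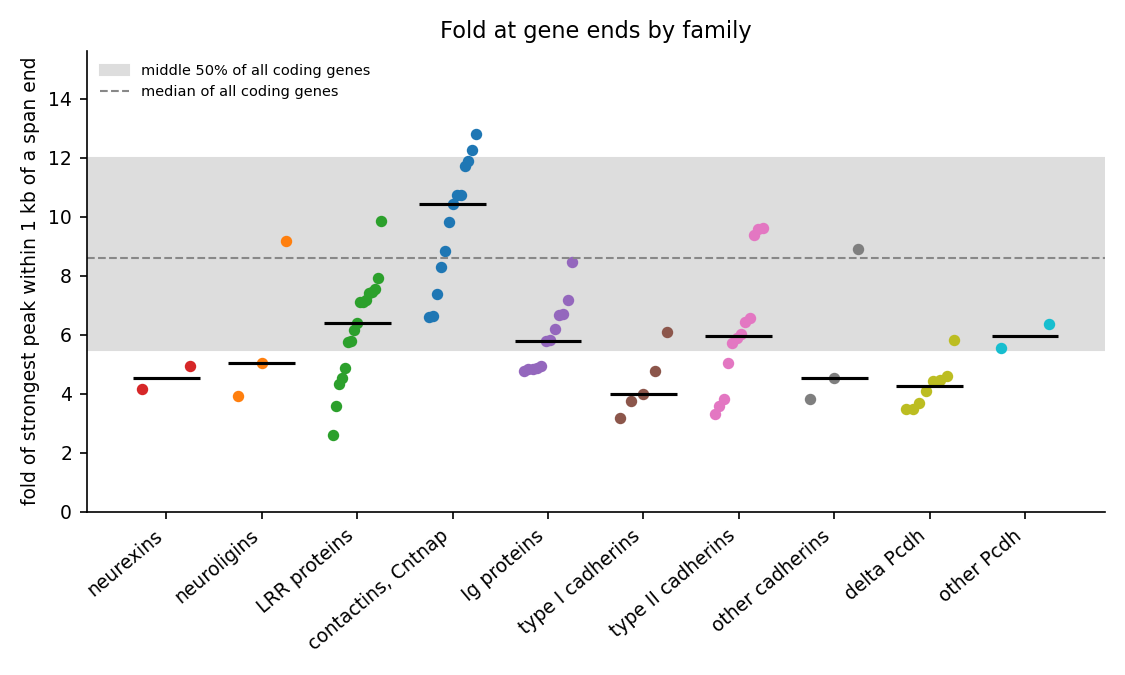
Fold enrichment of the strongest peak within 1 kb of an end of the gene (linear ratio), 1 point per adhesion gene drawn that has such a peak, by family; black bars are medians of the points, and the grey band and dashed line are the middle 50% and the median of all protein-coding genes. Contactins and Cntnap genes lie highest, at a median of 10.4, and type I cadherins and delta protocadherins lowest.

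The immunoglobulin proteins showed the opposite pattern, with dense interiors and moderate ends. All 12 had an end peak, at a median fold of 5.79, and their median density was 24.3 per 100 kb. Cadm1, a synaptic adhesion molecule that binds Cadm2, held 103 peaks in 332 kb, or 29.3 per 100 kb, with an end fold of 7.16. Dscaml1 and Dscam, which keep the branches of like neurons apart, held 99 and 142 peaks, or 28.6 and 23.5 per 100 kb. Their end folds were 4.88 and 6.19. Kirrel3, which bears on hippocampal synapses, held 149 peaks, or 25.9 per 100 kb, and had the highest end fold of the family, 8.47. Kirrel2 and Kirrel had 26.9 and 19.8 per 100 kb, and the end peak of Kirrel2 lies within 1 kb of an end of Nphs1. Without peaks inside or near other coding genes the density of Kirrel2 was 6.72. Igsf21, a partner of neurexin at inhibitory synapses, held 60 peaks, or 25.0 per 100 kb.

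The exceptions in this family were the X-linked Il1rapl genes, which act on excitatory synapses. Il1rapl1 spans 1375 kb and held 9 peaks, with a fold of 4.93 at its end. Il1rapl2 spans 1278 kb and held 3 peaks, with folds of 3.66, 4.83 and 3.38. All 3 lay within 2641 bp of the lower end, and the remaining 1275.7 kb, or 99.8% of the gene, had none. The lowest density among Cadm genes was that of Cadm2, 8.63 per 100 kb over 965.5 kb, with an end fold of 6.68. Cadm3 and Cadm4 had 26.7 and 18.8 per 100 kb and end folds of 5.80 and 6.69. Without peaks inside or near other coding genes their densities were 8.89 and 7.06, and the end peak of Cadm3 lies within 1 kb of an end of Ackr1.

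**Figure D4:**
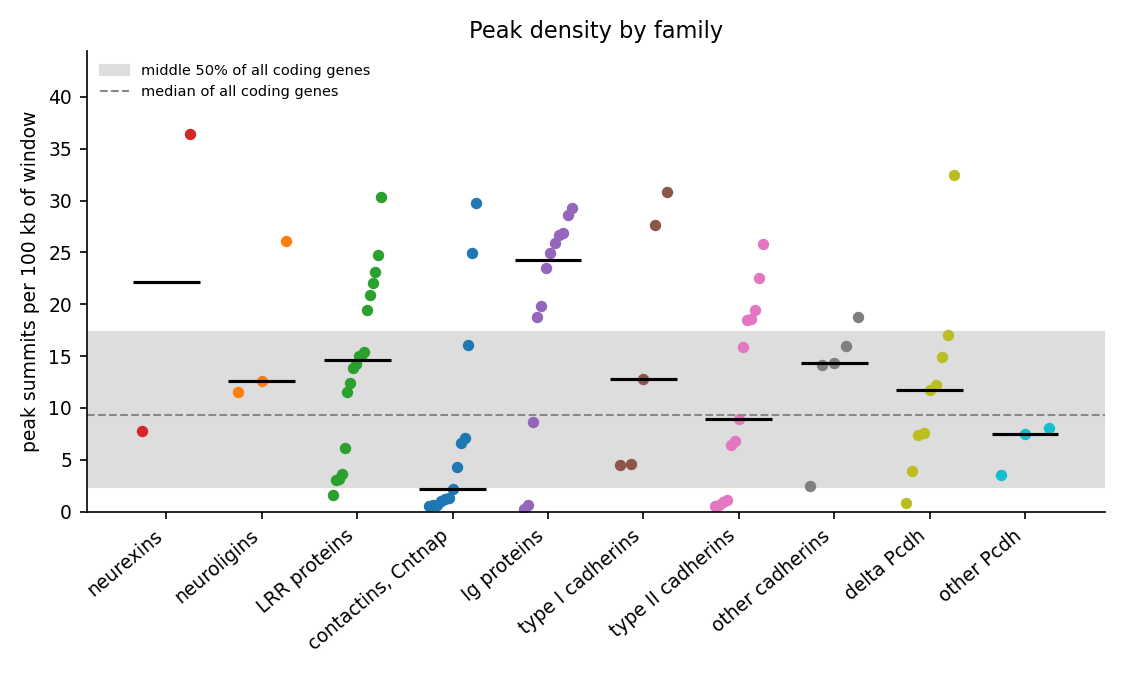
Peak summits per 100 kb of the gene with its 10 kb flanks, 1 point per adhesion gene drawn, by family; black bars are medians of the points, and the grey band and dashed line are the middle 50% and the median of all protein-coding genes. Immunoglobulin proteins have a median of 24.3, contactins and Cntnap genes 2.21, and each of these families has members on the far side of the protein-coding median of 9.31.

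Of the type I cadherins, the classical ones, the neural Cdh2 and Cdh4 held more peaks than the epithelial Cdh1 and Cdh3. Cdh2 (N-cadherin) held 74 peaks, or 30.8 per 100 kb, with an end fold of 6.10. Cdh4 (R-cadherin) held 132, or 27.7 per 100 kb, with an end fold of 4.76. Cdh1 (E-cadherin) and Cdh3 (P-cadherin) of epithelia held 4 and 3 peaks. The 4 of Cdh1 had folds of 3.18, 4.05, 4.33 and 4.10, and the 3 of Cdh3 had 3.76, 3.76 and 4.55. Cdh1 and Cdh3 had densities of 4.60 and 4.54 per 100 kb, below the protein-coding median. Cdh15 (M-cadherin), known from muscle and cerebellum, held 5 peaks with an end fold of 3.98. Weak peaks were therefore present at epithelial cadherins too. End peaks, of folds from 2.55 to 3.83, were present at 2 of 3 epithelial marker genes, a share near the 69.2% of all protein-coding genes.

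Type II cadherins ranged from nearly bare to dense, and 12 of 13 had an end peak. The highest end folds were 9.61 in Cdh12, 9.59 in Cdh7 and 9.38 in Cdh20. Cdh12 held 6 peaks in 1149.5 kb and Cdh7 2 in 163 kb, while Cdh20 held 46 in 227 kb. The end peaks of Cdh12 and Cdh7 lay at the lower end. The strongest end peak of Cdh20, on the plus strand, lay instead at the end 225631 bp from its listed start, where the fold was 6.85. The densest were Cdh22 with 25.8, Cdh10 with 22.5 and Cdh24 with 19.5 per 100 kb. The end peak of Cdh24 lies within 1 kb of an end of Acin1, and without peaks inside or near other coding genes its density was 9.73, below Cdh20 at 18.6 and Cdh11 at 18.5. Cdh9 had 1 peak in 128.6 kb, of fold 6.43, at the start printed above. Cdh10, on the same chromosome, had 49 peaks in 197 kb. Cdh6 had no peak at an end but one of fold 8.82 at its listed start. Cdh18 had an end peak of 3.83 and one of 9.82 at a listed start 488 kb inside. Cdh5 (VE-cadherin), which joins endothelial cells, held 10 peaks with an end fold of 3.59. An end peak was present at 2 of 4 endothelial marker genes, a share below the 69.2% of all protein-coding genes.

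Of the other cadherins, Cdh13 (T-cadherin), which is anchored by a lipid and lacks a cytoplasmic tail, had more peaks than any other member. It held 226 in 1185 kb, or 18.8 per 100 kb, yet its end peaks reached only 3.83 and its strongest peak 7.41, 128462 bp inside the higher end. Cdh23, of the tip links of hair cells, held 66 peaks, or 16.0 per 100 kb, with an end fold of 4.52. The gene Vsir lies within Cdh23, and without peaks inside or near other coding genes the density of Cdh23 was 8.94. In the kidney cadherin Cdh16 an end peak had a fold of 8.90, and the strongest peak touching its window, of 12.9, lies at an end of Pdp2. The gut cadherin Cdh17 had no end peak and 2 inside, of folds 5.20 and 4.26. Cdh26, of epithelia, had no end peak and 11 peaks in its window, the strongest of 5.00.

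Delta protocadherins, which act in axon outgrowth and synapse formation, had weak ends and some strong inner peaks. An end peak was present in 8 of 9, at a median fold of 4.27. The highest were 5.83 in Pcdh18, 4.60 in Pcdh11x and 4.47 in Pcdh8, and the lowest 3.48 in Pcdh1 and Pcdh7. Pcdh17 held the strongest peak of any adhesion gene, of fold 14.4 at chr14:84477145-84477916, 34117 bp from its start. The end peak of Pcdh17 itself had a fold of 3.67. Pcdh9 spans 879 kb, had no peak at an end, one of 9.62 at its listed start and 66 in all, with a maximum of 10.8. Pcdh1, Pcdh10 and Pcdh17 were the densest, at 32.5, 17.1 and 14.9 per 100 kb. All 15 peaks of Pcdh1 had a fold of 3.92 or less.

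X-linked Pcdh11x and Pcdh19 were sparse. Pcdh11x held 5 peaks in 620 kb, and a stretch of 612.9 kb, or 98.8% of the gene, had none. Its strongest, of fold 6.85, lay 2970 bp inside the lower end. Pcdh19, mutated in a form of epilepsy, held 5 peaks with an end fold of 4.44. Of the other protocadherins, Pcdh15, also of the tip link, held 55 peaks in 1553.6 kb with an end fold of 6.37, and Pcdh20 2 with an end fold of 5.54. Pcdh12, the endothelial member, had no peak in the gene and 3 in its flanks, the strongest of 3.29.

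Among the 31 members longer than 300 kb, the interior ranged from almost bare to densely marked. With the first and last 10 kb left out, the median was 6.49 peaks per 100 kb against 8.50 for all 557 protein-coding genes of that length. Counted over the whole window, 11 members (35.5%) had fewer than 2 per 100 kb against 18.1% of those genes, and 5 (16.1%) had 20 or more against 18.1%. The 5 were Cadm1, Dscaml1, Cdh4, Kirrel3 and Dscam, which ranked 5, 9, 17, 30 and 57 of 557 by density. They held 99 to 149 peaks each, with a median end fold of 6.19. The 11 were Il1rapl2, Cdh12, Cntnap5c, Il1rapl1, Cntnap5b, Pcdh11x, Cdh18, Cntn6, Cntnap5a, Cntn5 and Lrrtm4. They held 3 to 17 peaks each, with a median end fold of 8.82, and 6 of the 11 lay above the protein-coding median of end fold, 8.60. With only peaks of fold 4.24 or more, the dense genes kept 3.12 (Cadm1), 2.31 (Dscaml1), 1.68 (Cdh4), 3.65 (Kirrel3) and 4.31 (Dscam) peaks per 100 kb. The median of all protein-coding genes, not matched for length, was then 3.13. Cdh4 fell below Nrxn3, which is not among the dense genes and kept 2.21, so membership of the dense group depended on weaker peaks. The 11 sparse genes kept from 0.0717 (Il1rapl1) to 0.468 (Pcdh11x).

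**Figure D5:**
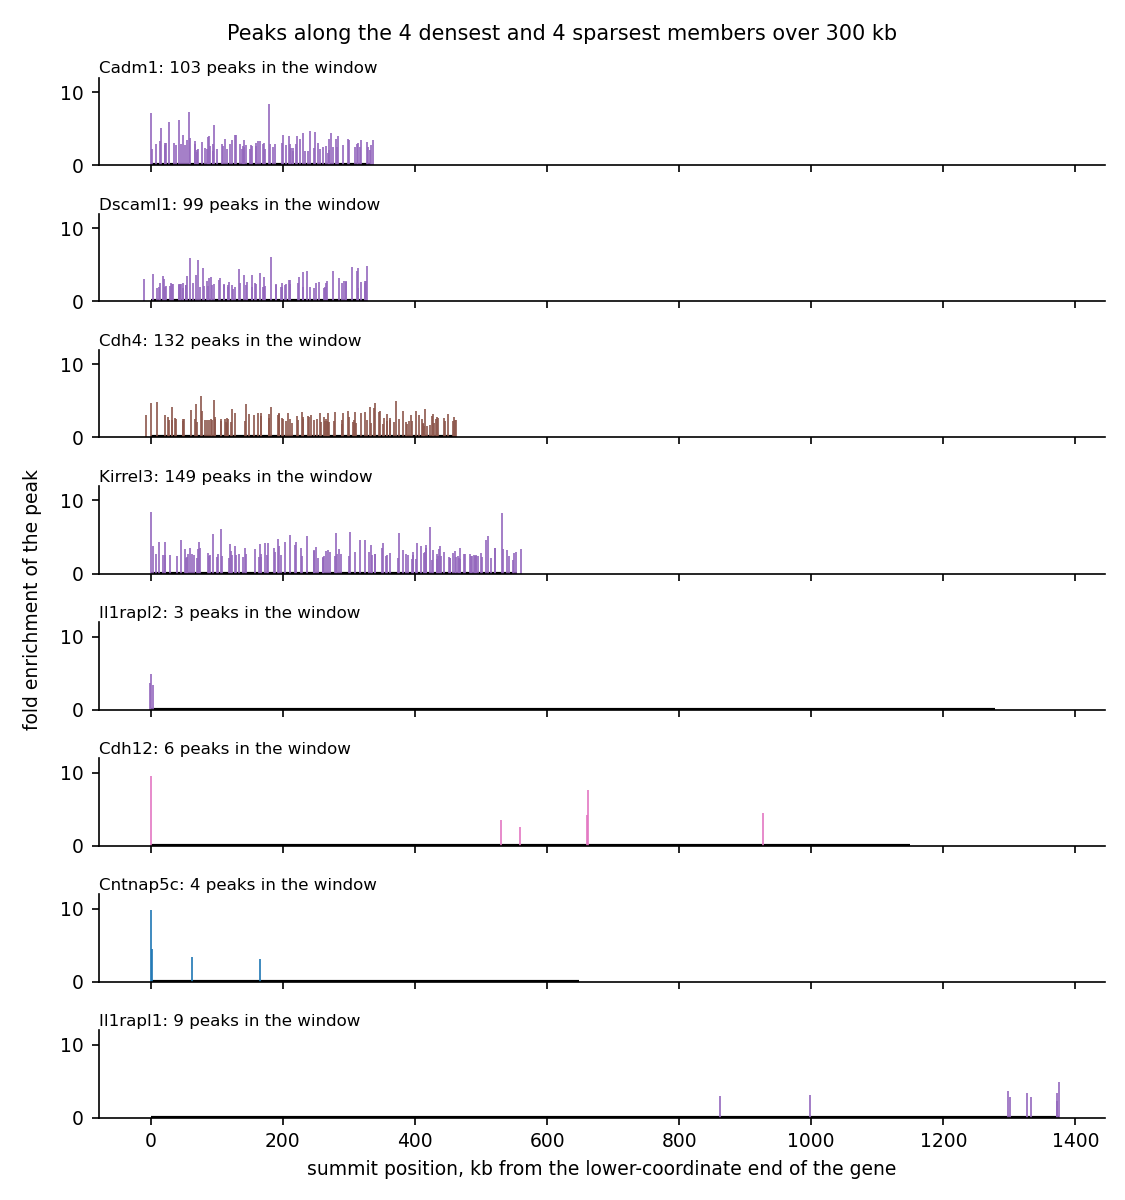
Fold enrichment of each peak (linear ratio, bar height) against the distance of its summit from the lower-coordinate end of the gene in kb, for the 4 densest and the 4 sparsest adhesion genes over 300 kb; the black line is the gene. Cadm1, Dscaml1, Cdh4 and Kirrel3 are filled from end to end, while Il1rapl2 has 3 peaks, all beside 1 end.

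Peaks tended to sit toward the start in some of the long genes. For 22 members over 100 kb with a listed start near the 5′ end and at least 4 peaks, the first 25% of the gene's length held a median of 34.8% of the peaks, against 25% in 1428 protein-coding genes chosen the same way. Pooled over peaks the shares were 28.1% and 24.8%. The first 25% held 54 of 127 peaks in Nrxn3, 17 of 32 in Pcdh7 and 6 of 8 in Il1rapl1. In 9 of the 22 members it held under 25%. Cntnap2, at 2241 kb the longest member, was the reverse: 40 of 48 peaks lay in the last 25%, where a second listed start, 2184 kb into the gene, had a peak of fold 6.47. Against the trend were also Cdh23, with 30 of 57 in the last 25% and 8 in the first, Dscam, with 43 of 140 in the last and 26 in the first, and Cntn5, with 1 of 14 in the first. Peaks inside or near other coding genes, such as Vsir within Cdh23, were not left out of these counts. A stretch of 628 kb of Cntnap2 had no peak.

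The ligands, receptors, scaffolds and catenins that bind these proteins were read from a list of 53 genes outside the symbol rule. All had a peak in the gene or within 10 kb, against 79.2% of protein-coding genes, and 48 (90.6%) had one at an end, against 69.2%. This background was not matched for length: the median length was 83.2 kb in the partners and 17.2 kb in all protein-coding genes. Of protein-coding genes from 20 to 100 kb, 89.9% had a peak in the window and 79.6% one at an end. The partners' median fold at an end was 5.91 against 8.60 in all protein-coding genes, and their median density 14.9 per 100 kb against 9.31. End peaks were present at 29 of 30 extracellular ligands and receptors, 14 of 17 scaffolds and 5 of 6 catenins. Dag1 (dystroglycan), a neurexin ligand, had an end fold of 13.5, the scaffolds Dlg2 and Lin7c 13.9 and 14.4, and the catenins Ctnna1 and Ctnna2, hosts of Lrrtm2 and Lrrtm1, 12.8 and 13.1. The secreted bridges Cbln1, Cbln2 and Cbln4 had 6.36, 5.85 and 5.97. The genes without an end peak were C1ql4, Gphn, Magi2, Shank3 and Ctnnd1, each of which had a peak at a listed start farther inside. Nxph2, a neurexin ligand, had 1 peak in all, and Tenm1, an X-linked teneurin, 8 in 901 kb against 178 in 739.9 kb for Tenm4.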

How the data were processed

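H3K27ac was measured by CUT&Tag in 3 bulk mouse hypothalamus samples, grouped by their titles. The submitters' processing notes list mm10, UMI-tools 1.1.4, STAR 2.7.10a, cutadapt 4.5, BWA 0.7.17 and MACS2, the last with no version and none with a role. The caller's settings and the joining of samples are not stated. Without a header, columns were read in narrowPeak order. Used were the position and summit, the fold deposited by the authors, a linear ratio, and the −log10 q deposited by the authors. Depth is unknown.

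Peaks were joined to RefSeq spans of GRCm38.p6 with Python 3.11.15, pandas 2.3.3 and numpy 2.4.6. The joining code was tested on simulated data. The span table has no strand, so the planned start window was replaced by 1 kb around either end of the span, and by listed starts for the 56 members and 17492 protein-coding genes that have one. Exons and introns were not used here. A peak counts toward density by its summit. Shares have 95% Wilson intervals. No test was made.

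The members, families, partner list and markers were chosen with earlier results of these data known. Named in the text are every member of a family of up to 6, and in larger families the 3 with the highest fold at an end, the 3 with most peaks per 100 kb, those with none at an end, the 10 strongest peaks, the 5 longest members and Cdh1, Cdh3, Cdh5, Cdh16 and Cdh17. 1 member counted in the totals is not reported here by itself and is in no figure. Members named beyond that rule were chosen after their values were seen. Alternatives changed the flanks, the start window, the summit rule, the peak threshold and the treatment of peaks near other genes. The Paired-Tag data were not analysed here.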

Additional observations from a re-analysis of the deposited data

How the results depend on the processing

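With only peaks above the median −log10 q of the list, the members' median density was 6.22 per 100 kb (all protein-coding genes 4.77) and the median covered share 5.95% (5.04%). With only peaks of fold 4.24 or more, the share of members with a peak at a listed start was 85.7% (59.8%), the median density 2.76 (3.13) and the covered share 2.60% (3.37%), so for density and coverage the order against all protein-coding genes turned; by construction the weaker peaks were gone. Without peaks inside or near another protein-coding gene, a setting not applied to the background, 92.9% of members kept a window peak, and the median density was 7.67 and the covered share 5.93%. Other flanks, start windows and the summit rule moved these summaries by less than their intervals, and the members' median highest fold stayed between 7.12 and 7.45. Among single genes, 44 densities moved beyond counting error under the first threshold, 59 under the second, 11 without peaks near other genes, 8 without flanks and 3 with flanks of 2 kb. Without olfactory, vomeronasal and trace amine receptor genes, a background chosen after seeing the data, 74.0% of the other protein-coding genes had an end peak. No paired analysis was possible because the list has no value per sample, and no sample could be left out for the same reason. Depth is unknown, and absence of a peak means absence from this list.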

Other observations

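The X-linked members were sparse in peaks, as were X-linked genes in general. The 7 members on the X chromosome, Nlgn3, Slitrk2, Slitrk4, Il1rapl1, Il1rapl2, Pcdh11x and Pcdh19, had a median of 3.08 peaks per 100 kb, against 13.8 in the 77 autosomal members. Over all protein-coding genes the medians were 1.55 on the X chromosome and 10.0 on autosomes. End peaks were present in all 7, and in 49.4% of X-linked protein-coding genes, but at a median fold of 4.83 against 9.39. Nlgn3 stood apart with 26.1 peaks per 100 kb. Above 300 kb, the 3 X-linked members had a median of 0.645 per 100 kb and the 24 X-linked protein-coding genes 0.825, while the 28 autosomal members had 6.95 and the 533 autosomal genes 9.22. The part of the chromosome in the low densities of Il1rapl1, Il1rapl2 and Pcdh11x was not tested.

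A single peak was all that 4 members had: Cntnap3, Cdh9, Slitrk4 and Slitrk6. Each of these peaks lay at an end of the gene, with folds of 7.37, 6.43, 7.18 and 7.44, all above the median end fold of the members, 5.96. Such low counts are common: over all protein-coding genes the median was 4 peaks and the lower quartile 1. The share of those genes with a single peak was not counted.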
